A study of Mus musculus with 4 samples.

Results

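The small nucleolar RNAs (snoRNAs) of mouse B lymphocytes were described over 4 expression arrays. A gene was taken as a member where a probe set of the deposited value table mapped to exactly 1 gene symbol, and that symbol began with Snora or Snord followed by a digit. The rule found 73 genes of 22180 named genes, 26 of the box H/ACA class (Snora symbols) and 47 of the box C/D class (Snord symbols), on 75 probe sets. The brightest probe set stood for a gene that had more than 1.

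The cells were primary C57BL/6 mouse cells, sorted with an antibody to B220 from spleens, thymi and lymph nodes. They came from wild-type mice or from the mutant named Tilcara, which carries an altered protein kinase C beta (PKCbeta). Each genotype gave 1 non-stimulated array and 1 array of cells treated for 4 hours with phorbol 12-myristate 13-acetate (PMA, 10 ng/mL), which activates protein kinase C, and the calcium ionophore A23187 (1 µM). Every group was thus 1 array, with no replicate, and the labels used here do not say how many mice stand behind an array. Signals were log2 values after robust multi-array averaging (RMA). A log2 difference between 2 arrays was counted where it reached 1, which is 2-fold. The limma fit took the genotypes as stand-ins for replicates of each state and kept 1 residual degree of freedom. Its p-values set the mean change against the difference between the responses of the 2 genotypes, moderated over all genes. They measure no spread between replicates. The verbs rose and fell are kept for genes that passed this fit, at a Benjamini-Hochberg adjusted p of at most 0.05 over all 22180 genes.

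SnoRNAs are short, stable nuclear RNAs. Box C/D members pair with ribosomal RNA and guide methylation of the ribose, and box H/ACA members guide conversion of uridine to pseudouridine. A few take part in cutting the ribosomal RNA precursor instead. In mammals most are cut out of introns of other genes, called hosts, after splicing, and each class is held by its own set of core proteins. The mature forms are long-lived, and resting lymphocytes that are driven to grow build up the machinery that makes ribosomes.

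Of the B cell marker list, 8 of 9 genes were measured and all 8 lay above the signal floor of 3.83, which is the median over every value of the named probe sets, in every array. Their summed linear signal was 11113 and 10839 in the non-stimulated wild-type and Tilcara arrays and 2185 and 2743 in the stimulated ones, and 6 of the 8 fell. Of 8 measured T cell markers, 7 reached the floor in wild type without stimulation and 2 in each other array, with summed signals of 205 there and 91.3 to 122 elsewhere. The summed signal of 10 neutrophil and macrophage markers was 943 in wild type without stimulation and 177 to 256 in the others, where 2 or 3 of the 10 reached the floor against 7. S100a8, a neutrophil calcium-binding protein, read 9.0 in that wild-type array and 2.36 to 3.81 in the other arrays, while Ly6g, a defining neutrophil surface marker, stayed below the floor in all 4. The part of other cells in the snoRNA differences was not tested. In such bulk samples, fewer cells of a type and less RNA per cell cannot be told apart, and RMA sets all arrays to a common distribution, so every difference is relative to the other genes of the array.

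SnoRNAs were well detected. A mean over the 4 arrays at or above the floor was found in 68 of the 73 members (24 H/ACA and 44 C/D), and 63 reached it in every array. The median H/ACA signal was 6.05 and 6.26 in the non-stimulated wild-type and Tilcara arrays and 7.41 and 7.0 in the stimulated ones. The median C/D signal was 6.05 and 6.06 without stimulation and 7.06 and 6.97 with it. Over all named genes the medians lay between 3.8 and 3.9. Both classes thus had nearly the same medians, and both were higher in the stimulated arrays of each genotype.

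**Figure D1:**
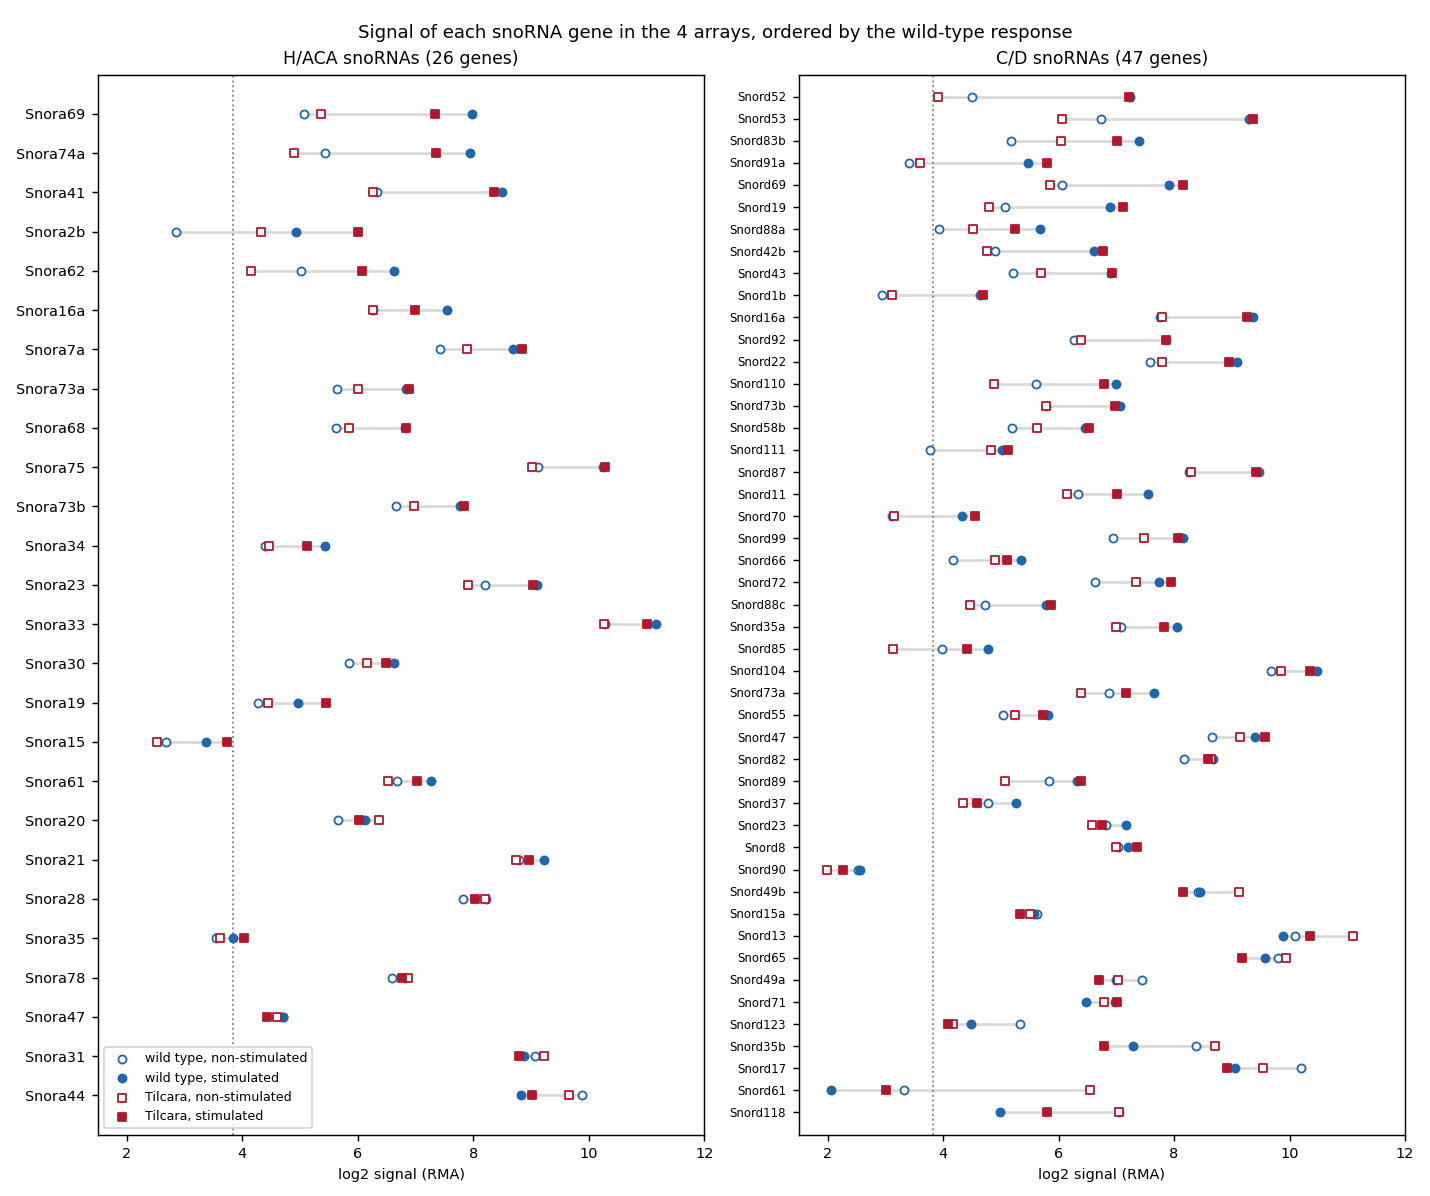
Log2 RMA signal (horizontal axis) of each of the 26 H/ACA and 47 C/D snoRNA genes in the 4 arrays, ordered by the wild-type response. Open symbols are non-stimulated arrays, filled symbols stimulated ones, circles wild type and squares Tilcara; grey lines span the 4 arrays and the dotted line is the signal floor of 3.83. Filled symbols lie to the right of both open symbols in 52 of the 73 genes and to the left in 8.

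Stimulation of wild-type B cells went with higher signals for most snoRNAs. The stimulated array was at least 2-fold higher in 36 of the 73 members, 12 H/ACA and 24 C/D, against 7.76% of all named genes (14.3% of genes with a mean at or above the floor). It was at least 2-fold lower in 5 members, 1 H/ACA and 4 C/D, against 9.14% of all named genes (16.6% at or above the floor). The median log2 difference was 0.89 for H/ACA and 1.06 for C/D members, beside 0.05 for all named genes. Over both genotypes, 41 members rose (16 H/ACA, 25 C/D), 5 fell and 27 did not pass the test. Of all named genes 11.1% rose and 11.6% fell, and of those with a mean at or above the floor 20.5% and 21.2%. Symbols ending in a copy letter (Snord88a, Snord88c) mark 21 members that may have similar copies sharing probes. This was read from the symbol alone, and no sequence was compared. Without them, 24 of 52 members rose.

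**Figure D2:**
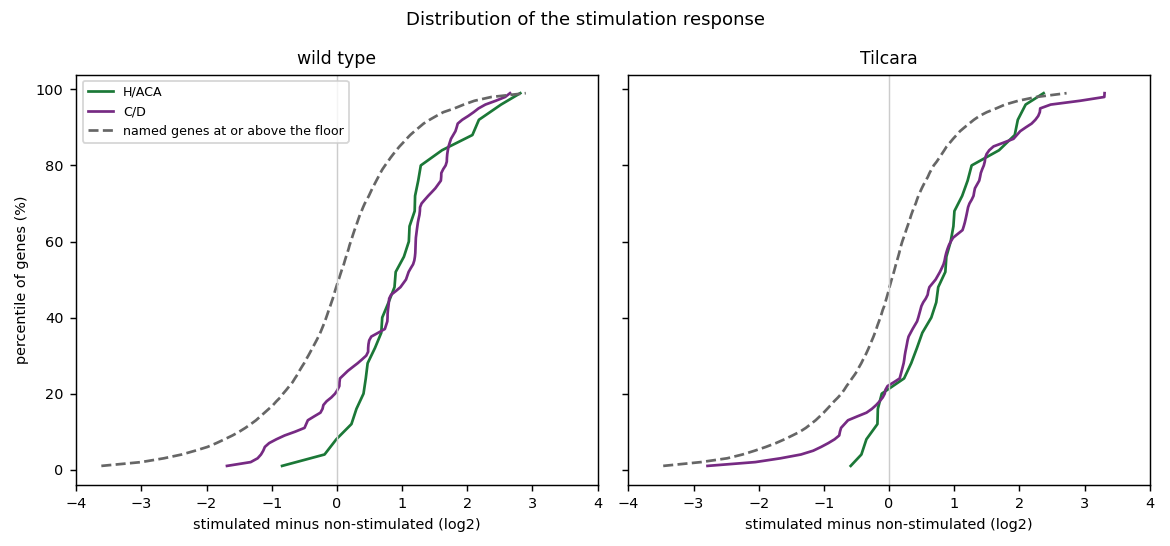
Percentile of genes (vertical axis, percent) by log2 difference between stimulated and non-stimulated cells (horizontal axis) for the 26 H/ACA and 47 C/D snoRNAs and, dashed, for named genes with a mean at or above the floor, in wild type and in Tilcara. At the median both snoRNA curves lie to the right of the dashed curve, at 0.89 and 1.06 against 0.03 in wild type and at 0.81 and 0.71 against 0.04 in Tilcara.

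The members with roles in cutting the ribosomal RNA precursor did not move as a group. Of 14 listed genes 6 were measured, and 3 rose and 2 fell. Snora73a and Snora73b, copies of the H/ACA RNA U17 that is needed for the small-subunit rRNA, rose together. Snora73b read 6.66 and 6.97 in the non-stimulated wild-type and Tilcara arrays and 7.76 and 7.83 in the stimulated arrays. Snora73a read 5.64 and 6.01 without stimulation and 6.84 and 6.89 with it. Both share the host Snhg3, and the signal cannot be fully assigned between such similar sequences. Snord22 (U22), another RNA of the small-subunit pathway, read 7.58 and 7.78 without and 9.08 and 8.95 with stimulation, a limma log2 change of 1.34 (SE 0.17, adjusted p = 0.00784).

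The large-subunit processing RNA moved the other way. Snord118 (U8), a C/D RNA required to mature the large-subunit rRNAs, read 7.04 and 7.05 in the non-stimulated wild-type and Tilcara arrays and 4.99 and 5.80 in the stimulated ones. Its limma log2 change was -1.65 (SE 0.24, adjusted p = 0.0116), and no stimulated array overlapped a non-stimulated one. Rnu3a, a copy of the U3 RNA that acts at the first cuts of the precursor and is on the same list without being a member by symbol, read 9.0 and 9.36 without stimulation and 6.32 and 6.73 with it (log2 change -2.65, SE 0.15, limma adjusted p = 0.00174). Snord13 (U13), known to guide acetylation of small-subunit rRNA, read 10.09 and 11.10 without and 9.89 and 10.35 with stimulation, and its groups overlapped. It did not pass the test (log2 change -0.47, SE 0.19, adjusted p = 0.175), but was called lower when the arrays were scaled by cyclic loess, which made the list 3 up and 3 down.

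Among H/ACA guides, Snora69, Snora74a and Snora41 had the largest wild-type differences. Snora69, held by the ribosomal protein gene Rpl39, read 5.06 and 5.36 in the non-stimulated wild-type and Tilcara arrays and 7.98 and 7.34 in the stimulated ones, 7.53-fold higher in wild type and 3.93-fold in Tilcara. Snora74a read 5.42 and 4.90 without and 7.94 and 7.36 with stimulation, 5.73-fold and 5.51-fold. Snora41, in an intron of the translation elongation factor gene Eef1b2, read 6.32 and 6.26 without and 8.50 and 8.36 with stimulation, 4.53-fold and 4.27-fold. In these 3 genes the stimulated arrays did not overlap the non-stimulated ones.

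Snora62, in the ribosomal protein gene Rpsa, read 5.01 and 4.14 without and 6.63 and 6.07 with stimulation. Snora2b read 2.85 and 4.32 without and 4.93 and 6.01 with stimulation, so both Tilcara arrays were above the wild-type array of the same state. Snora16a read 6.25 and 6.26 without and 7.54 and 6.98 with stimulation. All 3 rose, and the stimulated arrays did not overlap the others.

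Of the 5 brightest H/ACA members 2 rose, 1 fell and 2 did not pass the test. Snora33, in the gene of the ribosomal protein Rps12, read 10.28 and 10.26 without and 11.16 and 11.01 with stimulation (log2 change 0.82, SE 0.15, limma adjusted p = 0.0218); it was not called after cyclic loess scaling. Its second probe set was dimmer, at 7.48 and 7.49 without and 8.50 and 8.53 with stimulation. Snora75, in the nucleolin gene Ncl, read 9.13 and 9.01 without and 10.24 and 10.28 with stimulation and rose by 1.19 on the log2 scale. Snora31 read 9.07 and 9.21 without and 8.88 and 8.79 with stimulation and did not pass the test (adjusted p = 0.262), except after cyclic loess scaling, where it was called lower. Snora21 read 8.79 and 8.73 without and 9.23 and 8.96 with stimulation and was not called. Snora47, at 4.43 to 4.71 in all 4 arrays, was among those with the smallest differences.

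Snora44 was the H/ACA member that fell. It read 9.88 and 9.66 in the non-stimulated wild-type and Tilcara arrays and 8.82 and 9.02 in the stimulated ones (log2 change -0.85, SE 0.17, limma adjusted p = 0.0308). Its host Snhg12, a long non-coding RNA, carries 3 other members. Of these Snora16a rose, Snord99 rose (from 6.95 and 7.48 to 8.15 and 8.07, a call lost after cyclic loess scaling), and Snora61 did not pass the test (adjusted p = 0.0647), except with a filter at the floor or a trended variance. Snhg12 itself read 8.12 and 8.07 without and 8.98 and 8.85 with stimulation and rose. Members of 1 host transcript thus went in opposite directions.

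In the C/D class Snord52 and Snord53 had the largest limma changes. Snord52 read 4.51 and 3.92 in the non-stimulated wild-type and Tilcara arrays and 7.24 and 7.23 in the stimulated arrays, a limma log2 change of 3.02 (SE 0.20, adjusted p = 0.00215). Snord53 read 6.73 and 6.06 without and 9.30 and 9.37 with stimulation, a limma log2 change of 2.94 (SE 0.22, adjusted p = 0.00266). In both, Tilcara started lower than wild type and ended within 0.06 log2 units of it, and the folds were 6.64 and 5.93 in wild type and 9.92 and 9.86 in Tilcara.

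Snord69 and Snord19, which share the host Gnl3 (nucleostemin, a nucleolar GTP-binding protein), moved as a pair. Snord69 read 6.05 and 5.85 without and 7.91 and 8.16 with stimulation. Snord19 read 5.07 and 4.79 without and 6.89 and 7.12 with stimulation. Snord91a, in the ribosome maturation gene Tsr1, read 3.41 and 3.59 without stimulation, under the floor, and 5.47 and 5.81 with it. Snord83b, in the ribosomal protein gene Rpl3, read 5.18 and 6.04 without and 7.40 and 7.01 with stimulation, so its wild-type log2 difference of 2.22 exceeded the Tilcara one of 0.97. All 4 rose.

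Bright C/D members were divided. Snord104 read 9.68 and 9.85 without and 10.47 and 10.35 with stimulation and just missed the threshold (adjusted p = 0.052), which it passed with array centring, with a filter at the floor and with a trended variance. Snord47, held by the growth-arrest transcript Gas5, read 8.66 and 9.14 without and 9.39 and 9.58 with stimulation and was not called (adjusted p = 0.0704), except with the filter or the trended variance. Snord65 read 9.80 and 9.94 without and 9.57 and 9.17 with stimulation and was called lower with cyclic loess scaling alone of the alternatives tried. Snord49a, which shares a long non-coding host with Snord65 and Snord49b, read 7.45 and 7.02 without and 7.0 and 6.71 with stimulation and was likewise called with cyclic loess alone. Snord35a, the measured member of the Rpl13a introns, a set of C/D RNAs known from work on lipid and oxidative stress, read 7.08 and 6.99 without and 8.05 and 7.83 with stimulation and rose by 0.91 on the log2 scale. None of the 9 listed C/D genes of the imprinted clusters was a member under the rule, and they were not analysed here.

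Beside Snord118, 3 C/D members fell. Snord17, among the brightest, read 10.20 and 9.54 without and 9.05 and 8.91 with stimulation (log2 change -0.89, SE 0.19, limma adjusted p = 0.0342). Snord35b read 8.37 and 8.71 without and 7.28 and 6.78 with stimulation (log2 change -1.51, SE 0.24, adjusted p = 0.0154). Snord61, in the gene of the RNA-binding protein Rbmx, read 3.32 and 6.54 without and 2.06 and 3.02 with stimulation (log2 change -2.39, SE 0.55, adjusted p = 0.0418). For Snord61 only the non-stimulated Tilcara array was above the floor, and it was named after its values were seen.

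The Tilcara response had the same direction in most members, and its signed log2 value was lower in many. Stimulated Tilcara cells were at least 2-fold higher in 27 members, 9 H/ACA and 18 C/D, against 6.79% of all named genes (12.6% at or above the floor), and at least 2-fold lower in 3 C/D members, against 8.2% (15.1%). The median log2 difference was 0.81 for H/ACA and 0.71 for C/D members. Of the 73 members, 67 had the same sign in both genotypes, 22 were at least 2-fold higher in both, and Snord118, Snord35b and Snord61 were at least 2-fold lower in both. Both stimulated arrays were above both non-stimulated arrays in 52 members, beside 32.7% of all named genes, and below them in 8, beside 25.6%. Across the 73 members the responses of the genotypes, which share no array, correlated with Pearson's r = 0.87 and Spearman's rho = 0.88 (0.91 and 0.86 by r in H/ACA and C/D), a description over genes that share arrays and, in part, hosts.

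**Figure D3:**
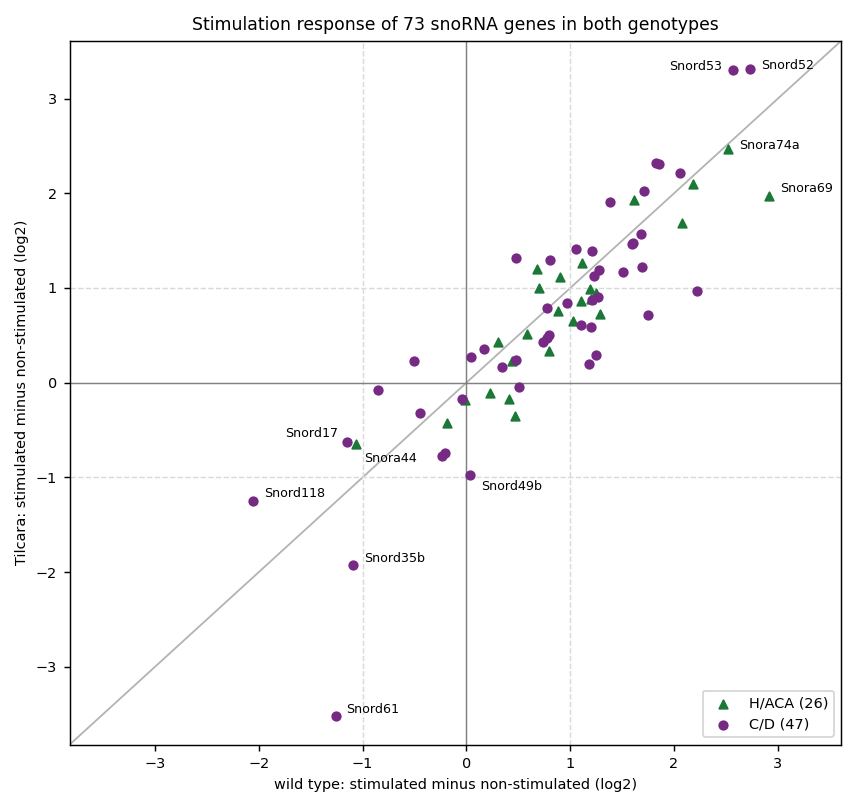
Log2 difference between stimulated and non-stimulated cells in wild type (horizontal axis) against the same in Tilcara (vertical axis), with 1 point for each of the 73 snoRNA genes (triangles H/ACA, circles C/D), the line of equality, and dashed lines at a 2-fold difference. Most points lie in the upper right, 47 of the 73 have a lower value in Tilcara, and Snord61 stands far below the line at -1.26 and -3.52.

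The Tilcara difference was lower than the wild-type one in 47 of 73 members, with a median difference of -0.13, beside 51.0% of all named genes and their median of -0.0092. It was lower by at least 1 log2 unit in 4 members, against 1.49% of all named genes, and higher by that much in 0, against 1.77%. The 4 were Snord61 (-2.26), Snord83b (-1.25), Snord88a (-1.04) and Snord49b (-1.02). Lower is by signed value here, so Snord61, which fell more in Tilcara (-3.52) than in wild type (-1.26), is among them. Without members with a copy letter the count was 1. These differences between the responses rest on single arrays and could not be tested, because they are the only residual of the fit.

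Most members lay within another gene. In the RefSeq gene table (GRCm38.p6) 70 of 73 members fell inside the span of a longer gene, on 56 hosts, of which 43 were measured as named genes and gave 57 pairs with their snoRNAs. Strand was not in that table, so a host is the shortest containing gene on either strand. Snord118, Snord13 and Snord89 lay in no such gene; Snord118 and Snord13 are known to be transcribed from promoters of their own. Snord89 read 5.84 and 5.07 without and 6.32 and 6.38 with stimulation and did not pass the test, except with a filter at the floor.

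Members in ribosomal protein genes showed the widest separation from the signals measured for their hosts. Of 18 members in 16 such genes, 14 rose and 1 fell, with a median wild-type difference of 1.22 and a Tilcara difference of 0.93 on the log2 scale. The median host differences over the measured pairs were 0.19 and 0.16. Of 10 members whose measured ribosomal protein host was not called, 9 rose. Rpl23a, host of Snord42b, read 11.44 and 11.55 without and 11.41 and 11.48 with stimulation, while Snord42b read 4.90 and 4.75 without and 6.61 and 6.77 with it. Rpl4, host of Snord16a, read 11.49 in both non-stimulated and 11.64 in both stimulated arrays, while Snord16a read 7.76 and 7.79 without and 9.36 and 9.27 with stimulation. Rpsa, host of Snora62, lay between 10.59 and 10.62 in all 4 arrays. The signals of these 3 hosts, 10.59 to 11.64, lay near the top of the named genes, whose highest mean was 12.29, and the part of saturation was not tested. Each host was read on its brightest probe set, and whether that set reads the host's own locus or a similar copy elsewhere was not tested. The probe set number of Rpl4 is close to that of its snoRNA. Those of Rpl23a, Rpsa, Rps12, Rps3a1 and Rpl39 are far from theirs. Across the 13 measured pairs r was 0.35 in wild type and -0.37 in Tilcara. Rpl3 and Rpl37 were the measured ribosomal protein hosts that rose, and Rpl37 holds Snord72, which read 6.63 and 7.33 without and 7.73 and 7.94 with stimulation, a rise that was not called after cyclic loess scaling.

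**Figure D4:**
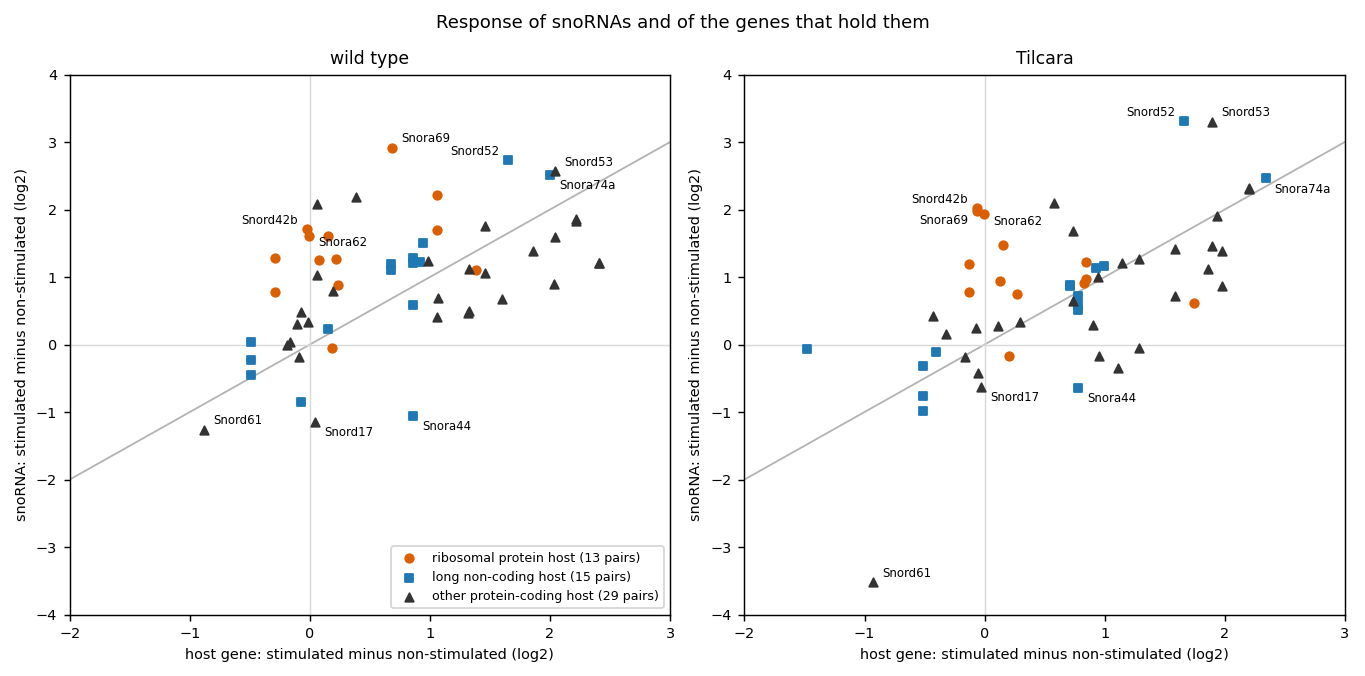
Log2 difference between stimulated and non-stimulated cells of the host gene (horizontal axis) and of the snoRNA (vertical axis) for the 57 pairs with a measured host, in wild type and in Tilcara, with the line of equality. Members in ribosomal protein genes (circles) stand mostly above the line, with host medians of 0.19 and 0.16 in wild type and Tilcara and hosts such as Rpl3 and Rpl37 farther to the right; members in long non-coding RNAs (squares) lie nearer to the line.

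Members in long non-coding hosts had differences nearer to those of their hosts. Of 20 members in 14 such transcripts, 9 rose and 1 fell, and across the 15 measured pairs r was 0.79 in wild type and 0.79 in Tilcara. Snhg4, host of Snora74a, read 8.04 and 7.57 without and 10.04 and 9.91 with stimulation. Snhg6, host of Snord87, read 10.32 and 10.22 without and 11.24 and 11.14 with stimulation, and Snord87 read 8.25 and 8.29 without and 9.48 and 9.42 with it. Snhg18, host of Snord123, was not called; it read 3.92 and 5.76 without and 3.85 and 4.29 with stimulation, and Snord123 read 5.33 and 4.16 without and 4.48 and 4.09 with it.

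The third class of hosts, other protein-coding genes, held 32 members in 26 genes, of which 18 rose and 2 fell. Across 29 measured pairs r was 0.62 in wild type and 0.72 in Tilcara. Nop56 and Nop58, core proteins of the C/D particle, each rose together with the C/D members in their introns. Nop58 read 7.72 and 8.14 without and 10.13 and 10.11 with stimulation, and its members Snord11 and Snord70 rose by 1.04 and 1.30. Snord70 read 3.12 and 3.16 without stimulation, under the floor, and 4.32 and 4.54 with it. Nop56 read 9.03 and 8.89 without and 10.89 and 10.82 with stimulation, and Snord110 rose by 1.65. Wdr43, a small-subunit processome protein, rose by 1.97 and its members Snord53 and Snord92 by 2.94 and 1.53. In Ncl, which rose by 1.31, Snora75 rose and Snord82, at 8.17 and 8.63 without and 8.67 and 8.59 with stimulation, did not pass the test.

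Snord17 fell while its host Snx5, a sorting nexin of endosomes, lay between 9.56 and 9.63 in all 4 arrays. Rbmx, host of Snord61, fell from 7.14 and 7.28 to 6.26 and 6.35. Over all host types, 20 hosts that rose held 30 members, of which 24 rose, 1 fell and 5 did not pass the test. The 22 hosts that were not called held 26 members, of which 12 rose, 1 fell and 13 did not pass. Over all 57 pairs r was 0.52 in wild type and 0.59 in Tilcara, and with 1 mean per host over the 43 hosts 0.53 and 0.58. The difference between host types was not tested. A probe on a snoRNA can also bind the unspliced host transcript, and how much of the signal came from it was not tested.

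Of the 56 hosts, 44 were in the RefSeq promoter table, whose windows run from 250 bases before to 50 after each start. The 6-base E-box CACGTG, a palindrome and so the same on both strands, was found in 11 of these 44 hosts, 25%, against 8.09% of all genes and 7.15% of all windows in that table. The genes of that comparison were not matched to the hosts for signal. This motif count was not among the planned results. The responses of only some hosts with the motif are given here: Ipo7 rose by 1.95, while Eef2 and Snx5 did not pass the test. Whether the response goes with the motif was not tested. The stretches below, from RefSeq on GRCm38.p6 and chosen after the values were seen, all lie upstream of the start, are written 5′ to 3′ on the gene's strand, and carry the motif in capitals. The Ipo7 stretch is chr7:110018156-110018205 (plus strand), the Eef2 stretch chr10:81176566-81176615 (plus strand) and the Snx5 stretch chr2:144270595-144270644 (minus strand).
Ipo7: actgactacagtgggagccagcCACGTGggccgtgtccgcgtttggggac
Eef2: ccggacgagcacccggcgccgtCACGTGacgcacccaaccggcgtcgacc
Snx5: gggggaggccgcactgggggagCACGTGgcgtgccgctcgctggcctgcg
Ipo7 (importin 7, which carries ribosomal proteins into the nucleus) holds Snora23, which read 8.19 and 7.91 without and 9.10 and 9.03 with stimulation and rose. Eef2, a translation elongation factor, holds Snord37, which read 4.78 and 4.35 without and 5.26 and 4.59 with stimulation and did not pass the test. A match of letters is a description of the window and shows no binding.

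The proteins that hold snoRNAs rose with them. All 3 measured C/D core proteins rose: Nop56 by 1.90, Nop58 by 2.19 and Snu13, which binds the kink-turn of the RNA, by 1.29 on the log2 scale. All 4 H/ACA core proteins rose as well. Dkc1, the pseudouridine synthase, read 6.58 and 6.53 without and 8.90 and 8.73 with stimulation. Nhp2 rose by 2.43, Gar1 by 1.96 and Nop10 by 0.87, and 3 of the 4 were called after cyclic loess scaling. Of 15 measured assembly factors 11 rose and 0 fell by limma (9 rose after cyclic loess). Among named genes at or above the floor 20.5% rose and 21.2% fell. Nolc1, a nucleolar chaperone of both particle classes, rose by 2.99, and Shq1, a chaperone of Dkc1, by 2.48. Naf1, which takes the place of Gar1 during assembly, read 6.33 and 5.18 without and 6.93 and 7.21 with stimulation and did not pass the test (adjusted p = 0.0702).

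Genes that trim snoRNA ends were mixed. Of 8 measured, 3 rose: the exosome nuclease genes Dis3 (by 2.18) and Exosc10 (by 0.74) and the exosome subunit gene Exosc9 (by 1.05). Parn, a deadenylase that trims H/ACA RNA tails, read 7.22 and 7.27 without and 6.36 and 6.39 with stimulation and fell. Of 18 measured long non-coding hosts on the list fixed by name, 10 rose and 0 fell (7 rose after cyclic loess). Snhg15 rose by 2.84. For both lists, the shares among named genes at or above the floor were 20.5% that rose and 21.2% that fell.

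None of the other stable small RNAs on the list rose. Of 13 measured small nuclear and other stable RNAs, 0 rose and 4 fell by limma (6 fell after cyclic loess). The 4 were named after their values were seen. Of all named genes 11.1% rose and 11.6% fell, and of those at or above the floor 20.5% and 21.2%. Rnu11, of the minor spliceosome, read 9.83 and 9.93 without and 8.06 and 8.0 with stimulation. Rnu12, of the same spliceosome, fell by 1.16, Vaultrc5, a vault RNA, by 2.04 and Scarna17, a Cajal body guide RNA, by 1.02. Over 472 microRNA genes the median log2 difference was 0.02 in wild type and 0.06 in Tilcara, with a median signal of 2.47 to 2.64 per array, under the floor. The difference between snoRNAs and these RNAs was not tested.

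No snoRNA was called for genotype. By limma no member and no gene of 22180 was called for genotype (0% of all named genes). An unadjusted limma p under 0.05 was found in 10 of 73 members and in 1138 of 22180 genes, and the smallest adjusted p was 0.878. Without stimulation the median Tilcara minus wild-type difference was 0.07 for H/ACA and 0.03 for C/D members, and with stimulation -0.10 and -0.09. Without stimulation 4 members were at least 2-fold higher in Tilcara, against 0.307% of all named genes, and 1 was at least 2-fold lower, against 0.532%. These single-array differences have no replicate check.

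Of the 4 higher members, Snord61, Snora2b and Snord111 were under the floor of 3.83 in the non-stimulated wild-type array, so the sizes of their differences are uncertain. Snord61 read 3.21 log2 units higher in non-stimulated Tilcara than in wild type; both of its stimulated arrays were under the floor. Snora2b was 1.47 higher without and 1.08 higher with stimulation, and it was the member at least 2-fold higher in Tilcara in the stimulated state, against 0.604% of all named genes; 0 were that much lower, against 0.586%. Snord111, in the splicing factor gene Sf3b3, read 3.78 in the wild-type and 4.83 in the Tilcara non-stimulated array, and 5.02 and 5.13 in the stimulated ones. Snord13 was 1.00 higher in non-stimulated Tilcara, and Snord123 was 1.17 lower there (a difference of -1.17). Rbmx, host of Snord61, differed by 0.14 without and 0.089 with stimulation, and Kansl2, host of Snora2b, by -0.14 without and 0.54 with it. Sf3b3 differed by -0.044 without and -0.12 with stimulation. Snhg18, host of Snord123, was 1.84 higher in Tilcara without and 0.44 higher with stimulation, the opposite sign to Snord123. The differences without stimulation share the non-stimulated wild-type array. That array has the higher neutrophil and T cell marker signals given above, and the part of those cells was not tested.

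**Figure D5:**
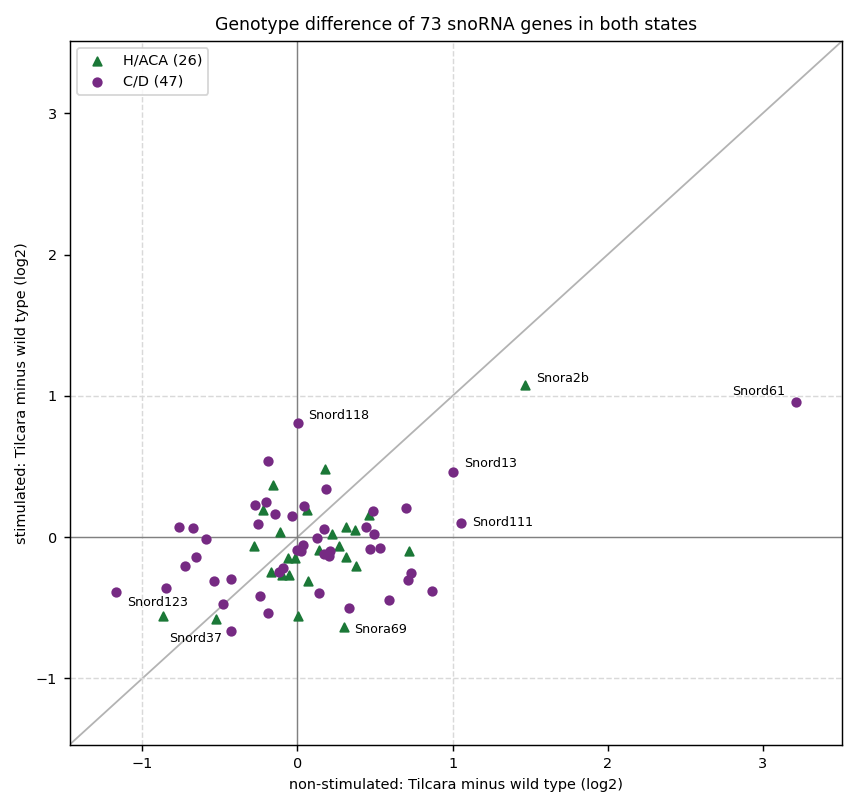
Log2 difference between Tilcara and wild type without stimulation (horizontal axis) and with stimulation (vertical axis), with 1 point for each of the 73 snoRNA genes (triangles H/ACA, circles C/D), the line of equality, and dashed lines at a 2-fold difference. Most points lie near 0 on both axes; Snord61 is at 3.21 and 0.95, and Snora2b at 1.47 and 1.08.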

How the data were processed

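The 4 arrays were analysed as log2 values that the authors deposited, which were made by RMA, per the submitters' processing notes; for the RMA version, none is given in the sources used here. Probe sets were named through the platform annotation: of 41345, 23521 had 1 gene symbol, 1814 several and 16010 none, leaving 22180 named genes. Differences between arrays were taken without a further filter. limma 3.58.1 (R 4.3.3) was fitted to all named genes with stimulation and genotype as terms, then eBayes and Benjamini-Hochberg adjustment, and was tested on simulated data. The number of arrays limits the precision: with 1 array per group, 1 residual degree of freedom remains.

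The members, gene lists and tests were chosen with earlier results of these data known. Text names, per class, the 6 members with the largest and the 6 with the smallest wild-type response among those with a mean at or above the floor, the 4 with the largest genotype difference per state, the 5 brightest, members of 3 lists, the core proteins, and their hosts; uncharacterised hosts stay unnamed. Other genes named (assembly, trimming and stable RNAs, markers, and members such as Snord61, Snord42b, Snord16a and Snord87) were chosen after their values were seen. Alternatives were array centring, cyclic loess, probe set means, a filter at the floor, a 1.5-fold threshold and a trended variance. SnoRNA sequences were not used here, so a planned count of C and D boxes was not made.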

Additional observations from a re-analysis of the deposited data

Results flagged for a closer look

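In 6 members the single wild-type and single Tilcara responses had opposite signs, and the difference was not tested because each rests on 1 array per group. Snord49b had a log2 difference of 0.037 in wild type and -0.98 in Tilcara; it read 8.41 and 8.45 in the wild-type arrays and 9.13 and 8.15 in the Tilcara arrays, without and with stimulation. Snora20, in the chaperonin gene Tcp1, had 0.47 in wild type and -0.35 in Tilcara. Snord71 had -0.50 and 0.23. Snora28, in the initiation factor gene Eif5, had 0.41 and -0.17. Snord82 had 0.50 and -0.049, and Snora78, in Snhg9, 0.22 and -0.11. With cyclic loess scaling 10 members had opposite signs, 5 of these 6 and 5 others, and Snord49b was lower in both genotypes (-0.27 and -1.26). No member of the 6 passed the limma test for stimulation.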

How the results depend on the processing

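No call for stimulation changed sign under any alternative run. With cyclic loess the median genotype difference without stimulation went from 0.038 to -0.019, and the Tilcara median of the pre-rRNA cleavage list from 0.059 to -0.22. Of the 46 members called for stimulation, all 46 stayed called with array centring, with probe set means and with a trended variance, 43 of 46 with cyclic loess, and all 43 that a filter at the floor left to test. With cyclic loess 9 members fell instead of 5, 6 were at least 2-fold lower in Tilcara instead of 3, and the median differences were 0.80 in wild type and 0.60 in Tilcara. Without the 21 copy-letter members, an alternative added after the data were seen, 24 rose, 21 were at least 2-fold higher in wild type, the medians were 0.78 and 0.51, 0 were at least 2-fold higher in stimulated Tilcara than in stimulated wild type, and 1 response was lower by that much in Tilcara. At a 1.5-fold threshold 42 members were higher and 8 lower in Tilcara on stimulation; 10 were higher and 8 lower in Tilcara without stimulation, 3 higher and 2 lower with it; and 5 responses were higher and 10 lower in Tilcara. Leaving out an array was not run, since the fit would have no residual degree of freedom. No paired analysis was possible because each group has 1 array, and genotype is already a term of the fit. Signals under the floor are the least certain, and no difference between genotypes has a replicate.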

Other observations

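A further 43 probe sets named a snoRNA together with another symbol and were not members. In wild type, 12 of them were higher with stimulation by 2-fold or more and 0 were lower, and in Tilcara 10 were higher and 2 lower, with medians of 0.31 and 0.06 on the log2 scale; 19 of the 43 had a mean under the floor. Both probe sets of Snora19, in the initiation factor gene Eif3a, held identical values in all 4 arrays.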
